A study of Caenorhabditis elegans with 44 samples.

Results

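The response to auxin itself was read from 8 of the series' 44 libraries, all at 8 h and without heat shock: 4 libraries of TIR1-only animals on auxin plates (replicates 1 to 4) and 4 of the same strain on ethanol plates. Every gene with enough reads was followed, since no gene was selected beforehand. The strain, CA1199, carries the unc-119 allele ed3 on chromosome III. On chromosome IV it carries the transgene ieSi38, in which the sun-1 promoter drives TIR1 fused to mRuby in the germline, with the sun-1 3'UTR and Cbr-unc-119(+) as its marker. It has no degron on HSF-1, so in this strain auxin has no tagged target. Both groups share the strain, the age and the handling: synchronized larvae grew for 51 h to young adults, and about 120 worms per condition were picked onto each kind of plate. The auxin dose is not given in the sources used here. Whole animals were lysed, so the RNA mixes all tissues, and fewer cells of a type cannot be told apart from less RNA per cell. Set beside them were 8 libraries of HSF-1-AID animals at 8 h (strain JTL621, which adds hsf-1::aid::gfp on chromosome I to that genotype, on auxin or ethanol), and TIR1-only animals at 16 h (4 per group) and 24 h (3 per group).

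Auxin is a plant hormone, and in the degron system it joins the plant F-box protein TIR1 to a tagged protein, which the proteasome then destroys. An animal also meets it as a foreign small molecule. Caenorhabditis elegans clears such molecules mostly in the intestine: cytochrome P450 enzymes and esterases open or oxidise them, UDP-glucuronosyltransferases and glutathione S-transferases attach sugars or glutathione, and ABC transporters pump out the products. Many of these genes are silent or low until a compound is met, and the cyp-35 genes are among the most widely used markers of that induction.

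The 8 libraries held 12.5 to 44.8 M reads (M, 1000000 reads), and both libraries numbered 4 were the deepest. Ribosomal RNA genes took 1.26% to 31.4% of the reads, the most in ethanol replicate 3. Values are read counts scaled to 1000000 reads (CPM) as the authors scaled them. The first principal component over tested genes held 36.9% of the variance and did not split the treatments, with auxin scores of -41.3 to 21.1 and ethanol scores of -23.1 to 19.4. Nothing in the labels ties a replicate to a culture of its own. The p-values therefore rest on the spread between these samples, part of which may be technical.

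Few transcripts passed the test for a change with auxin at 8 h, and nearly all that did rose. Of 10971 genes tested, 26 were higher and 1 was lower on auxin (limma, Benjamini-Hochberg adjusted p under 0.05, two-sided), which is 0.237% and 0.00911% of tested genes. At an unadjusted p under 0.05, 143 were higher and 112 lower. The median log2 fold change over all tested genes was -0.01, with a spread between genes of 0.25 (SD). For 89.5% of tested genes the 95% interval of the log2 fold change lay between -1 and 1. The 26 identifiers stand for 25 genes, because clec-209 has 2 identifiers whose reads were equal in 15 of 16 libraries. All 27 called identifiers are protein coding.

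Most of the 26 were scarce on ethanol, where their median level was 5.71 CPM, against 17 CPM for all tested genes: 19 lay under that value and 6 under 1 CPM. irg-6, clec-206, cyp-35A1, cdr-1 and gst-21 passed the filter of 1 CPM in 4 libraries only with auxin libraries counted. The filter thus admits genes low on ethanol when they are high on auxin, and the comparison of levels is a description. Their median log2 fold change was 1.96, 24 of them exceeded 1, and 13 exceeded 2. In all 26 each auxin library stood above each ethanol library, a pattern seen in 91 tested genes, or 0.829%. The 26 were chosen as higher in these same libraries, so this count and the sums that follow describe them and test nothing. Added up over the 25 genes, the transcripts made 1261, 696, 958 and 1017 CPM on auxin, and 344, 365, 181 and 239 CPM on ethanol, so that the groups did not overlap. The means were in a ratio of 3.48.

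**Figure D1:**
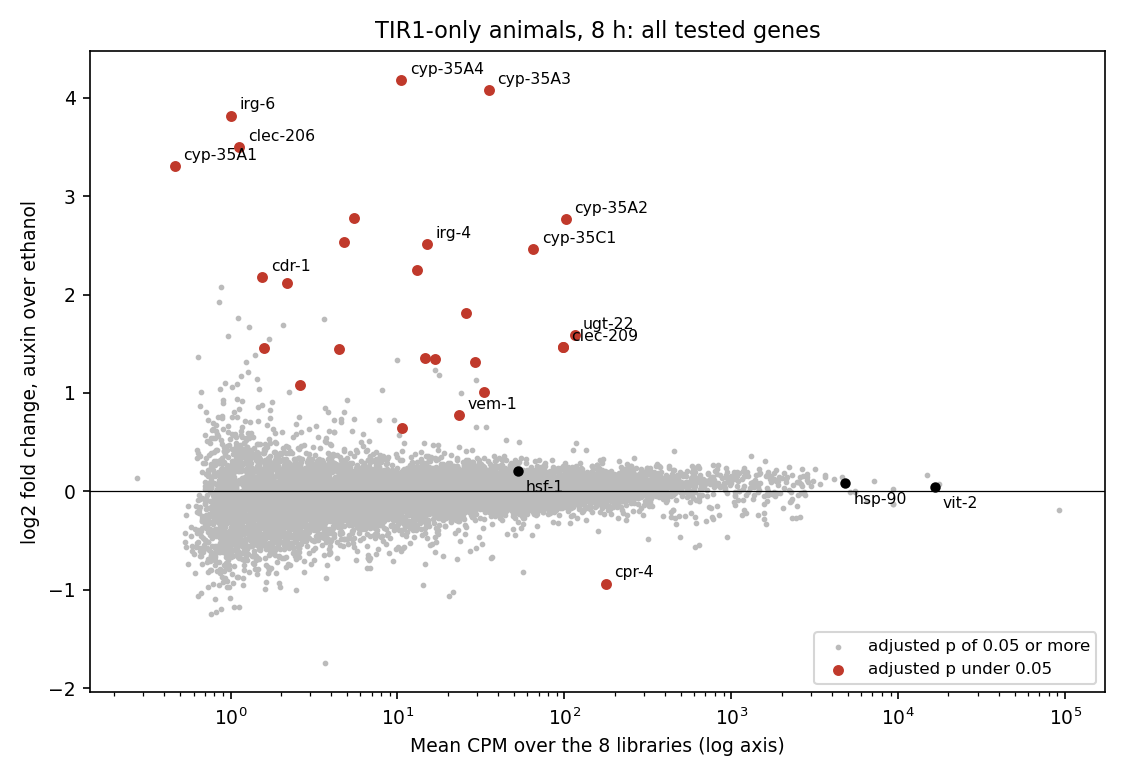
Each point is 1 tested gene of TIR1-only animals at 8 h, with the mean CPM over the 8 libraries on a log axis and the log2 fold change of auxin over ethanol on the vertical axis. Red points are the 27 identifiers with an adjusted p under 0.05: 26 lie above 0, and cpr-4 at -0.94 lies below, while hsf-1, hsp-90 and vit-2 (black) lie near 0.

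How firmly single genes were called depended on which libraries shared the estimate of spread. The fit drew it from all 4 groups at 8 h. With the 2 TIR1-only groups alone, limma called 0 genes (smallest adjusted p 0.0571, with 191 at an unadjusted p under 0.05, 87 of them lower), although each of the 26 was still higher, with an unadjusted p under 0.05. Without 1 library the number higher was 8 (no auxin replicate 1), 15 (no auxin replicate 3), 11 (no auxin replicate 4), 10 (no ethanol replicate 3) or 13 (no ethanol replicate 4). Without the 4 deepest libraries, those numbered 4 in both strains, it was 0 (smallest adjusted p 0.0679, with 175 higher and 114 lower at an unadjusted p under 0.05). The 8 genes called in every fit that left out 1 TIR1-only library were ugt-22, clec-206, cyp-35A4, irg-6, cyp-35C1, cdr-1, C29F7.2 and vem-1.

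Cytochrome P450 genes of the cyp-35 family led the response. Of 36 P450 genes tested, 6 rose and none fell, and all 6 were cyp-35 genes: 6 of the 7 cyp-35 genes tested were called. The median log2 fold change was 2.77 over the 7 cyp-35 genes and 0.03 over the 36 P450 genes, beside -0.01 over all tested genes. The family's P450 enzymes oxidise foreign compounds and are also linked to fat storage.

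cyp-35A2 (chr V:7362319-7364182, WBcel235) was the most abundant of them, at 107 CPM per kb of exon on auxin and 21.1 CPM per kb on ethanol. Its libraries held 192, 133, 193 and 163 CPM on auxin, against 52.6, 55.6, 6.43 and 19.7 CPM on ethanol. The lowest auxin library stood far above the highest ethanol library, and ethanol replicates 3 and 4 were far below replicates 1 and 2. The log2 fold change was 2.77 ± 0.52 (SE, n = 4 each; limma, adjusted p = 0.0341).

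cyp-35A3 (chr V:4022609-4024482) held 70.4, 38.6, 78.6 and 70.4 CPM on auxin, against 11.9, 10.7, 0.616 and 2 CPM on ethanol. The same 2 ethanol libraries were the low ones, and the log2 fold change was 4.08 ± 0.74 (limma, adjusted p = 0.0239). Its neighbour cyp-35A4 (chr V:4031619-4033446), 7.14 kb away, held 19.9, 7.12, 25.01 and 27.1 CPM on auxin, against 1.69, 2.70, 0.137 and 0.774 CPM on ethanol. At 4.18 ± 0.61 (limma, adjusted p = 0.00695), it had the largest fitted log2 fold change of the 27. That ranking depends on the small number of reads added to each count, which lowers the fitted value of scarce genes such as cyp-35A1. Auxin replicate 2 was the lowest of the auxin libraries for both genes.

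cyp-35C1 (chr V:13896663-13898487) held 139, 70.7, 102 and 123 CPM on auxin, against 29.5, 32.1, 8.97 and 15.7 CPM on ethanol (log2 fold change 2.46 ± 0.37, limma, adjusted p = 0.00695). cyp-35A5 held 31.2, 14.9, 17.3 and 21.4 CPM on auxin, against 8.72, 7.26, 1.98 and 2.50 CPM on ethanol (2.25 ± 0.45, limma, adjusted p = 0.0455). In neither gene did the groups overlap. cyp-35A1, which lies 545 bases from cyp-35A2, was almost silent on ethanol: it had 87 reads over the 4 auxin libraries and 1 read over the 4 ethanol libraries. Scaled to library size, that is a ratio of 80.02, with a counting interval of 13.99 to 3196 (exact binomial, 95%, counting error only). The last member tested, cyp-35D1, held 9.73, 4.47, 4.46 and 4.11 CPM on auxin, against 2.13, 1.52, 1.23 and 1.34 CPM on ethanol. Its log2 fold change of 1.75 ± 0.36 narrowly missed the threshold (limma, adjusted p = 0.051), though the groups did not overlap.

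Among the 29 P450 genes outside the family none was called, beside 0.237% called higher and 0.00911% lower of all tested genes. These cyp-35 paralogues are alike in sequence, and identical gene copies carried equal counts in the tables, so reads that match several of them may have been counted for each. How much of one paralogue's value comes from another was not tested.

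The cyp-35 genes also differed between libraries of a group. Summed over the 7 members they made 464, 269, 422 and 410 CPM on auxin, against 107, 110, 19.4 and 42.0 CPM on ethanol. In 6 of the 7 genes ethanol replicates 1 and 2 both exceeded replicates 3 and 4. The HSF-1-AID ethanol libraries had the same order in 7 of 7 genes, with summed levels of 106, 127, 63.1 and 33.8 CPM. TIR1-only ethanol replicate 3 was the library with the most ribosomal RNA, and replicate 4 the one with the least. Their part in this order was not tested.

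**Figure D2:**
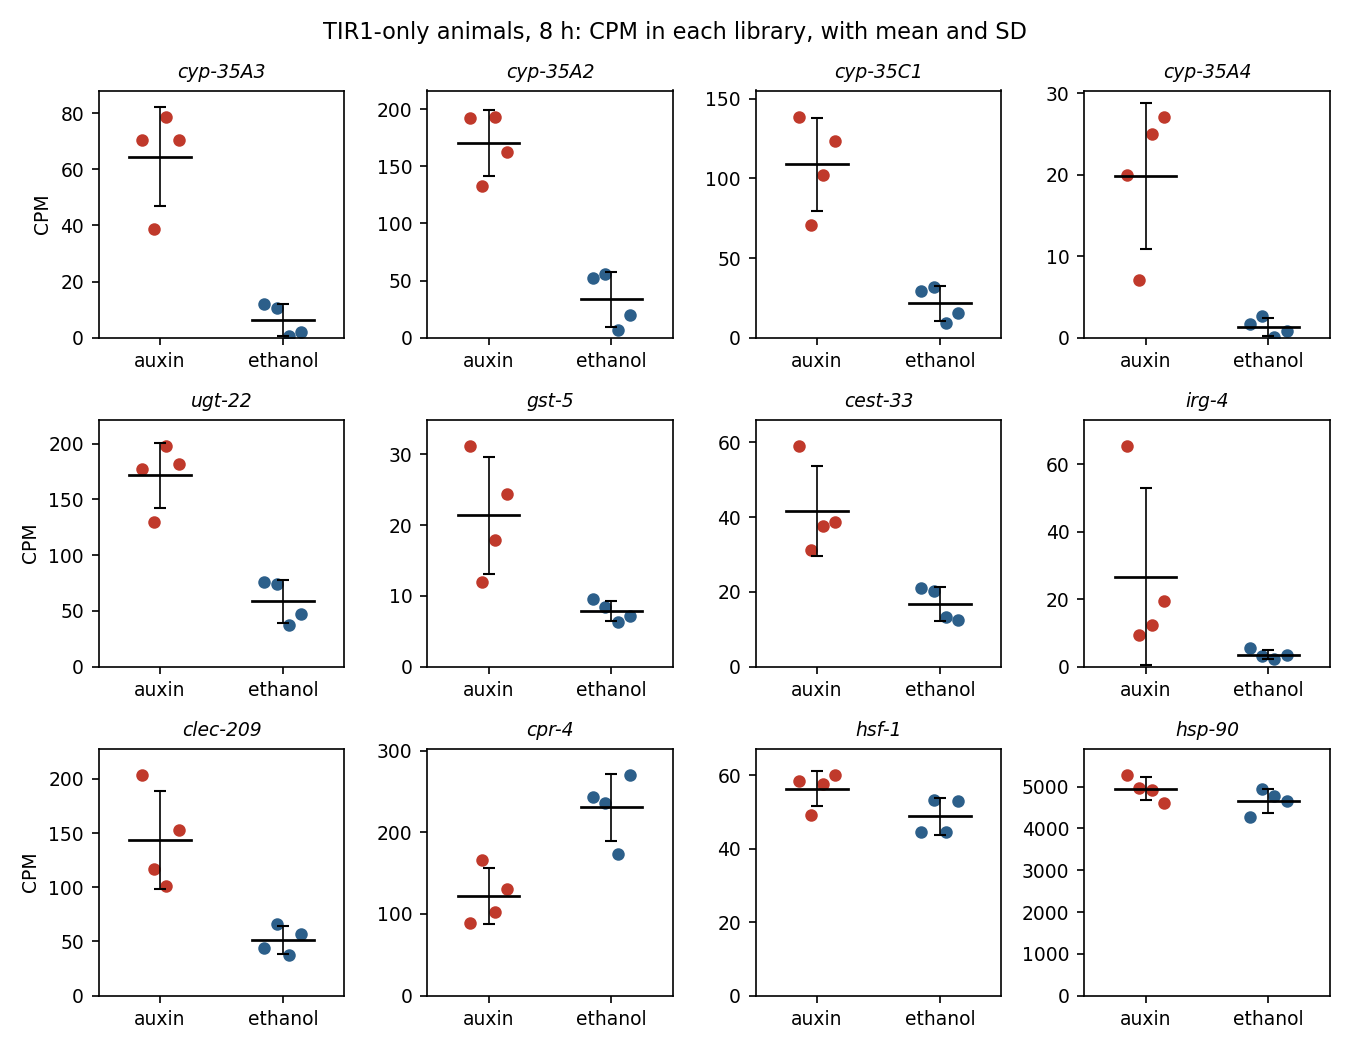
Each panel is 1 gene, with CPM on the vertical axis from 0; points are the 4 auxin (red, left) and 4 ethanol (blue, right) libraries, bars the mean and whiskers the SD. In the first 9 genes all auxin points lie above all ethanol points, in cpr-4 below, and in hsf-1 and hsp-90 the points overlap.

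Conjugating enzyme genes were among those called as well. Of 47 UDP-glucuronosyltransferase genes tested, 3 rose and none fell, with a list median of -0.06. ugt-22 (chr IV:13639260-13644567) held 177, 130, 198 and 182 CPM on auxin, against 76.2, 73.9, 37.7 and 47.3 CPM on ethanol. Again ethanol replicates 3 and 4 were the low ones, and the log2 fold change was 1.59 ± 0.22 (limma, adjusted p = 0.00695). ugt-16 averaged 24.5 ± 11.3 CPM on auxin and 9.19 ± 2.89 CPM on ethanol (SD, n = 4 each; log2 fold change 1.34, limma, adjusted p = 0.0412). ugt-21 averaged 6.62 ± 2.89 CPM on auxin and 2.26 ± 0.42 CPM on ethanol (1.44, limma, adjusted p = 0.029). An annotated gene lies antisense to ugt-21, and the counting is not stated to use strand, so reads from either strand may enter its value. Of the called genes 6 have such an overlap: ugt-21, ugt-22, gst-5, T16G1.7, F13D11.4 and cpr-4.

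Another 7 UDP-glucuronosyltransferase genes were higher at an unadjusted p under 0.05 without passing the adjusted threshold, and 1 was lower. With the 3 called genes that makes 10 higher of 47, beside 143 higher and 112 lower of all 10971 tested genes. Of the 7, ugt-8 averaged 2.72 ± 2.31 CPM on auxin and 0.655 ± 0.151 CPM on ethanol (limma, adjusted p = 0.837). It was named after its values were seen, being called in HSF-1-AID animals.

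Glutathione S-transferase genes rose in 2 of 27 tested members, with none lower and a list median of 0.13. gst-5 held 31.2, 12.01, 17.9 and 24.3 CPM on auxin, against 9.60, 8.49, 6.37 and 7.12 CPM on ethanol (log2 fold change 1.36 ± 0.23, limma, adjusted p = 0.014). The gene nos-1 overlaps its exons on the other strand. gst-21 held 3.82, 1.81, 1.88 and 2.01 CPM on auxin, against 0.628, 0.787, 0.890 and 0.819 CPM on ethanol (1.46 ± 0.28, limma, adjusted p = 0.0412). In both genes auxin replicate 1 was the highest library. gst-35 averaged 1.98 ± 0.88 CPM on auxin and 0.601 ± 0.288 CPM on ethanol and was not called (1.67, limma, adjusted p = 0.184). Unlike these, gst-4, the usual reporter of the oxidative stress factor SKN-1, held 13.7, 15.8, 15.02 and 13.7 CPM on auxin, against 16.6, 10.6, 13.6 and 9.65 CPM on ethanol, and the groups overlapped (0.24 ± 0.23, limma, adjusted p = 0.999).

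Of 25 sulfotransferase and esterase genes, cest-33, a carboxylesterase gene, was the 1 that rose. It held 59.0, 31.3, 37.7 and 38.7 CPM on auxin, against 20.96, 20.2, 13.2 and 12.59 CPM on ethanol (log2 fold change 1.31 ± 0.22, limma, adjusted p = 0.0121). Its relatives cest-28 (-0.56) and cest-35.2 (1.21) were not called (limma, adjusted p = 0.999 each). None of 44 ABC transporter genes, 27 short-chain dehydrogenase genes or 4 flavin monooxygenase genes was called. The share called over all tested genes was 0.237% higher and 0.00911% lower. The P-glycoprotein gene pgp-1, an efflux pump, came closest, with 41.6, 13.3, 23.01 and 18.1 CPM on auxin, against 13.1, 7.37, 8.97 and 8.51 CPM on ethanol. Its groups did not overlap, and its log2 fold change was 1.24 ± 0.26 (limma, adjusted p = 0.0559).

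**Figure D3:**
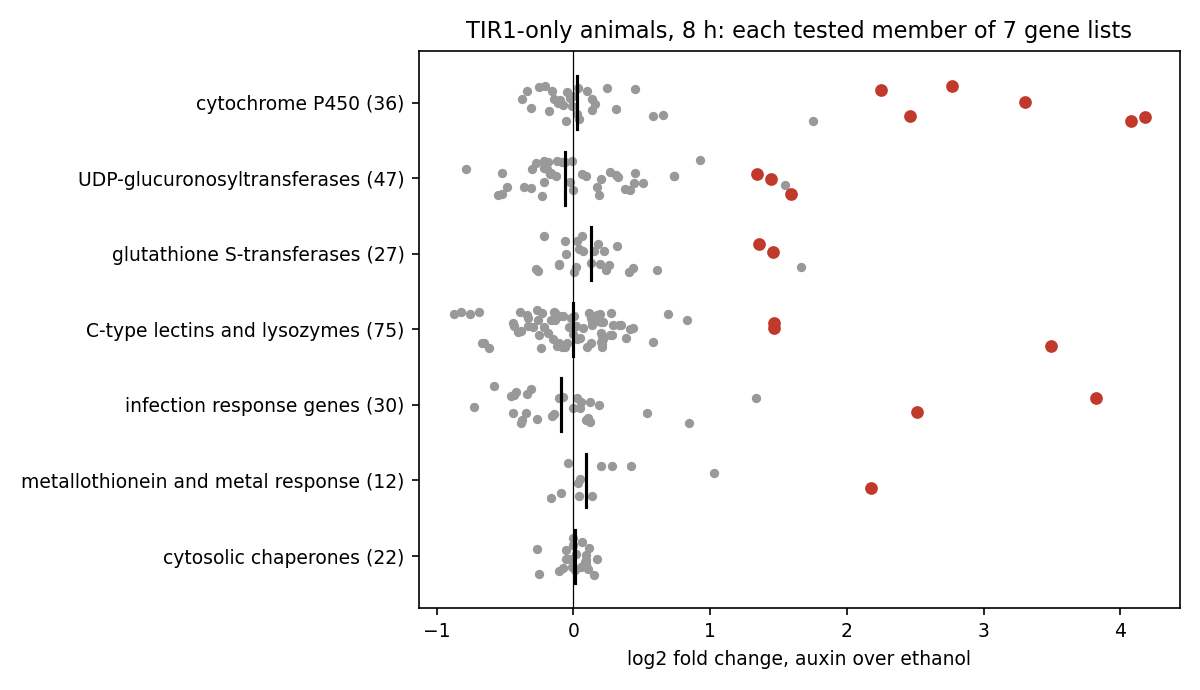
Each row is a gene list with its number of tested members, each point 1 member of TIR1-only animals at 8 h, and the horizontal axis the log2 fold change of auxin over ethanol; red points are called, black bars are list medians. Called were 6 of 36 P450 genes, 3 of 47 UDP-glucuronosyltransferase and 2 of 27 glutathione S-transferase genes, all toward the right of their lists. Uncalled members lie there too: gst-35 (1.67) lies right of gst-5 and gst-21, and ugt-8 (1.55) right of ugt-21 and ugt-16. The list medians stay near 0.

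Genes known from pathogen responses rose as well. Among 30 infection response genes tested, irg-6 and irg-4 rose, none fell, and the list median was -0.09. irg-4 (chr IV:12435833-12438236) held 65.5, 9.30, 12.2 and 19.5 CPM on auxin, against 5.46, 3.04, 2.19 and 3.48 CPM on ethanol. Auxin replicate 1 stood far above the next library, and the log2 fold change was 2.51 ± 0.49 (limma, adjusted p = 0.0412). irg-6 had 154 reads over the auxin libraries and 4 over the ethanol libraries, a ratio of 35.4 with a counting interval of 13.6 to 132. irg-5 had a log2 fold change of 1.34 ± 0.38, its groups overlapped, and it was not called (limma, adjusted p = 0.608).

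C-type lectin and lysozyme genes, which encode secreted sugar-binding and bacteria-degrading proteins, included 3 called identifiers of 75, none lower, with a list median of -0.004. clec-206 had 263 reads over the auxin libraries and 8 over the ethanol libraries, a ratio of 30.2 with a counting interval of 15.1 to 70.8. The fitted log2 fold changes of clec-206 (3.50), irg-6 (3.82) and cyp-35A1 (3.30) depend on the prior added to each count, and ran from 2.29 to 5.13 over priors of 0.5 to 5 reads. clec-209, read as 1 gene, held 204, 117, 101 and 153 CPM on auxin, against 44.2, 66.0, 37.9 and 57.1 CPM on ethanol (1.47 ± 0.25, limma, adjusted p = 0.0129). In the list, 4 identifiers were higher and 6 lower at an unadjusted p under 0.05, beside 143 and 112 of all 10971 tested genes. One of the lower was the lysozyme gene lys-4 at 42.4 ± 17.9 CPM on auxin and 69.98 ± 7.70 CPM on ethanol (-0.82, limma, adjusted p = 0.943).

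cdr-1, named for its response to cadmium, held 4.46, 1.69, 1.77 and 2.48 CPM on auxin, against 0.502, 0.337, 0.342 and 0.819 CPM on ethanol. It was the 1 called gene of 12 in the metal response list (log2 fold change 2.17 ± 0.32, limma, adjusted p = 0.00695). Its relatives cdr-4 (1.03, adjusted p = 0.396) and cdr-2 (0.28, adjusted p = 0.999) were not called by limma.

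Several rises fell in none of the 36 lists. T16G1.6 held 18.1, 6.22, 7.26 and 7.02 CPM on auxin, against 1.88, 1.91, 0.411 and 1.32 CPM on ethanol (log2 fold change 2.78 ± 0.46, limma, adjusted p = 0.0121). It lies 425 bases from T16G1.7, which also rose (2.12 ± 0.42, limma, adjusted p = 0.044). C29F7.2 held 69.7, 21.6, 33.5 and 36.99 CPM on auxin, against 13.4, 13, 7.67 and 9.35 CPM on ethanol (1.81 ± 0.28, limma, adjusted p = 0.00802). F55G11.2, which lies 52.5 kb from irg-6 on chromosome IV, rose by 2.53 ± 0.41 (limma, adjusted p = 0.0116).

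The smallest rises called were the tightest between libraries, which the threshold requires of a small change. vem-1, a homologue of the progesterone receptor membrane component family, held 33.9, 24.3, 27.05 and 32.5 CPM on auxin, against 18.7, 16.9, 15.3 and 17.5 CPM on ethanol. Both groups were narrow, and a log2 fold change of 0.77 ± 0.12 sufficed for a call (limma, adjusted p = 0.00812). C18H9.6 (1.004 ± 0.18), F13D11.4 (1.08 ± 0.22) and F59B1.8 (0.64 ± 0.13) were called as well (limma, adjusted p = 0.0239, 0.0461 and 0.0487). vem-1 and these 3 lay outside the rule for named genes and were taken because they completed the called set.

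By position, 16 of the 26 higher identifiers lie on chromosome V, which holds 17.4% of the tested genes, and none on chromosome I or III. Those 16 are 0.839% of the genes tested on chromosome V. They include the cyp-35 pairs and T16G1.6 with T16G1.7, and 3 pairs of called neighbours lie within 10 kb of each other.

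The libraries kept an order over the response as a whole. Of the 25 genes, 17 had their highest auxin value in replicate 1 and 23 their lowest in replicate 2. On ethanol, 16 had their lowest value in replicate 3.

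A single gene was called lower. cpr-4, a cathepsin B-like cysteine protease gene (chr V:6614674-6615851), held 89.3, 166, 103 and 130 CPM on auxin, against 243, 236, 173 and 270 CPM on ethanol. The groups nearly met without overlapping, and the log2 fold change was -0.94 ± 0.18 (limma, adjusted p = 0.044). This call held without auxin replicate 2 or ethanol replicate 3 and was lost without any 1 of the other 6 TIR1-only libraries (adjusted p 0.0939 to 0.229). Its relative cpr-1 was at -0.40 and was not called (limma, adjusted p = 0.999), and the list of 25 intestinal protease genes had a median of -0.05.

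For hsf-1 and its known chaperone targets no change with auxin was detectable in this strain. hsf-1 held 58.3, 49.3, 57.7 and 60.02 CPM on auxin, against 44.5, 53.3, 44.4 and 52.9 CPM on ethanol, and the groups overlapped (log2 fold change 0.21, 95% interval -0.05 to 0.47, limma, adjusted p = 0.999). hsp-90, the cytosolic chaperone, held 5280, 4980, 4930 and 4606 CPM on auxin, against 4272, 4937, 4773 and 4663 CPM on ethanol (0.09, interval -0.17 to 0.34, limma, adjusted p = 0.999). Of 22 genes in the cytosolic chaperone list, which also holds the endoplasmic reticulum gene hsp-3, none was called, and the list median was 0.01. Calls were rare anyway, at 0.237% higher and 0.00911% lower of all tested genes. The intervals of hsp-1 (cytosolic Hsc70, -0.20 to 0.49), hsp-4 (endoplasmic reticulum BiP, -0.18 to 0.24) and hsp-6 (mitochondrial Hsp70, -0.22 to 0.37) each excluded a change of 2-fold.

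Stress pathways beyond xenobiotic clearance gave no called gene in the list of SKN-1 targets (19 tested, median 0.02). The same held for the joint list of the insulin pathway and DAF-16 targets (18, 0.10). It held for the endoplasmic reticulum (24, 0.02) and mitochondrial (14, -0.002) unfolded protein responses. No small heat shock protein gene (11, -0.19) or proteasome gene (33, 0.03) was called either. sod-3, a DAF-16 target encoding a superoxide dismutase, was at -0.44 ± 0.29, and skn-1 itself at 0.25 ± 0.18 (limma, adjusted p = 0.999 each). The 10 genes of the tryptophan and kynurenine list, the pathway nearest to indole compounds, had a median of -0.15 and no call. In all, 27 of the 36 lists held no called gene, and their medians ran from -0.29 to 0.10. Of all tested genes 0.237% were called higher and 0.00911% lower. At that share most lists of these sizes would hold no call, so an empty list says little about its pathway.

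Yolk and reproduction showed no called change. vit-2, which encodes a yolk protein, held 22782, 14792, 13690 and 15575 CPM on auxin, against 14012, 17297, 12054 and 22031 CPM on ethanol, a spread wider than the difference (0.04 ± 0.27, limma, adjusted p = 0.999). The annotated C. elegans gene unc-119, which is not the transgene's marker Cbr-unc-119(+), was at 0.26 ± 0.22 (limma, adjusted p = 0.999). Cuticle collagen genes were above 0 in 5 of 70 members with a median of -0.27, but their summed level ran from 24157 to 30120 CPM on auxin and from 23439 to 36665 CPM on ethanol, and the groups overlapped. Major sperm protein genes were below 0 in all 32 members (median -0.29), and their sum ran from 119.2 to 559 CPM on auxin and from 152 to 547 CPM on ethanol. Members of such a list rise and fall together between libraries, so a one-sided count is not a count of independent genes.

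Markers of 12 cell types gave no called gene, beside 0.237% called higher and 0.00911% lower of all tested genes. So few calls would rarely meet short marker lists. Summed marker levels overlapped between auxin and ethanol in every list: intestine (8 genes) 3050 to 3623 CPM on auxin and 2810 to 4228 CPM on ethanol, germline (10 genes) 4159 to 6423 CPM on auxin and 4041 to 4844 CPM on ethanol, and sperm (37 genes) 139 to 658 CPM on auxin and 183 to 684 CPM on ethanol. The lowest p was that of hypodermis (exact permutation test, two-sided, p = 0.114, 0.857 after adjustment over the 12 lists), at 1439 ± 177 CPM on auxin and 1751 ± 252 CPM on ethanol. With 4 libraries against 4 the smallest p possible is 0.0286.

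The same genes were read in HSF-1-AID animals on the same 2 kinds of plate. The fold changes of that strain were not used to choose the 26, but its libraries shared the estimate of spread behind the p-values. Its libraries also counted toward the filter of 1 CPM in 4 libraries. irg-6, clec-206 and cyp-35A1 passed that filter only with HSF-1-AID auxin libraries counted. Calls and non-overlap there, and for these genes the direction too, are therefore not independent of the choice. All 26 identifiers, 2 of them those of clec-209, were higher on auxin there too. Their median log2 fold change was 1.81, while 48.1% of all tested genes were above 0. In all 26 the HSF-1-AID auxin libraries stood above every HSF-1-AID ethanol library, against 1.6% of tested genes. Of the 26, 18 were called higher there, when 0.246% of tested genes were. That is 69.2% of the TIR1-only calls and 66.7% of the 27 HSF-1-AID calls. cpr-4 was at 122.1 ± 33.8 CPM on auxin and 231 ± 40.9 CPM on ethanol in TIR1-only animals, and it fell in HSF-1-AID animals as well (-1.05, limma, adjusted p = 0.0167), as did 3 other genes, 0.0365% of those tested being lower in all.

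Of the 26, 8 missed the threshold in HSF-1-AID animals. Among these, cyp-35A3 was at 4.08 in TIR1-only and 3.08 in HSF-1-AID animals (limma, adjusted p = 0.144 there), cyp-35A2 at 2.77 and 2.29 (0.105), and cdr-1 at 2.17 and 1.48 (0.0789). None of the 27 called genes differed between the strains at an unadjusted p under 0.05 of the difference itself, beside 378 of all 10971 tested genes. The 95% interval of that difference was -3.19 to 1.21 for cyp-35A3 and -0.43 to 0.28 for vem-1. The count therefore does not show equal changes in the strains. Conversely, 9 genes called higher in HSF-1-AID animals were not called in TIR1-only animals, where they ran from 0.33 to 2.08 with a median of 1.31. Among them was pgp-1, at 1.24 in TIR1-only and 1.92 in HSF-1-AID animals (limma, adjusted p = 0.002 there).

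**Figure D4:**
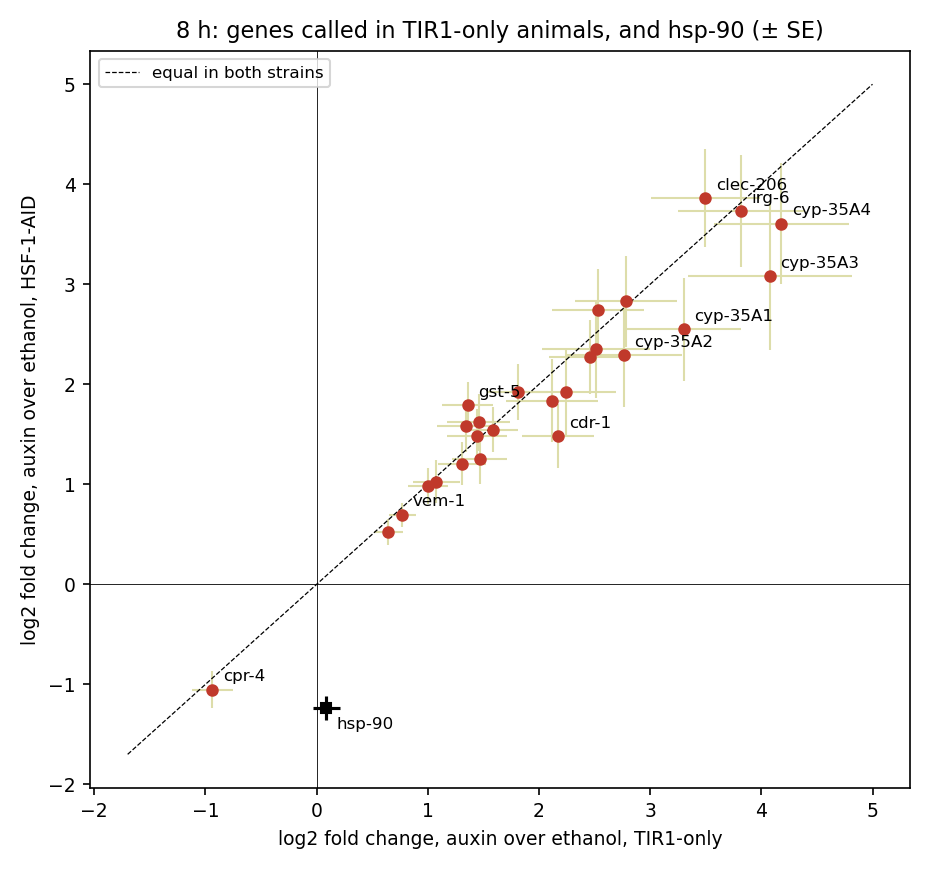
Each red point is a gene called in TIR1-only animals at 8 h, with its log2 fold change of auxin over ethanol in TIR1-only (horizontal) and HSF-1-AID animals (vertical), and bars of 1 SE. The red points follow the dashed line of equal change, from cpr-4 at the lower left to cyp-35A4 at the upper right, while hsp-90 (black) is near 0 on the horizontal axis and at -1.24 on the vertical axis.

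Across all tested genes 1 gene differed between the strains in its auxin effect, 0.00911% of those tested. That was hsp-90, at 0.09 in TIR1-only and -1.24 in HSF-1-AID animals (difference, HSF-1-AID minus TIR1-only, -1.32, limma, adjusted p = 0.00673). Without the 4 libraries numbered 4 the difference was -1.31 with an adjusted p of 0.123. Next in order were mlt-10 and hsp-1, neither past the threshold. hsp-1 was at 0.15 in TIR1-only and -0.82 in HSF-1-AID animals, and mlt-10 at 0.33 and -0.78.

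The response was also followed to 16 and 24 h, in other animals and separate tables. At 16 h, 14 identifiers, among them both of clec-209, were higher and 1 lower in TIR1-only animals on auxin (limma, 0.138% and 0.00983% of 10173 tested). Of the 26 identifiers, 21 were tested at 16 h, both of clec-209 included. Of these 12 were called higher, and 21 were above 0, where 47.4% of all tested genes were. Their median was 1.59 at 8 h and 0.94 at 16 h, but the 8 h values chose the genes, so the sizes are not set against each other.

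cyp-35A3, cyp-35A2, cyp-35C1 and irg-4 had the smallest adjusted p-values at 16 h. cyp-35A3 held 28.3, 20.3, 24.0 and 36.5 CPM on auxin, against 1.99, 3.11, 2.46 and 3.68 CPM on ethanol (log2 fold change 3.26 ± 0.27, limma, adjusted p = 2.57e-05). cyp-35A2 held 77.5, 66.4, 78.1 and 95.6 CPM on auxin, against 21.5, 22.2, 16.1 and 28.9 CPM on ethanol (1.86 ± 0.17, limma, adjusted p = 2.68e-05). The ethanol libraries were closer to each other than at 8 h. irg-4 held 13.1, 7.77, 12.1 and 10.1 CPM on auxin, against 2.43, 1.72, 2.08 and 2.87 CPM on ethanol (2.21 ± 0.20, limma, adjusted p = 2.68e-05).

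A few genes were called at 16 h and not at 8 h, and were named for that. irg-5 held 11.9, 13.5, 16.97 and 11.96 CPM on auxin, against 3.61, 2.48, 5.85 and 4.33 CPM on ethanol at 16 h (1.78 ± 0.32, limma, adjusted p = 0.034). gst-4 held 16.9, 13.2, 13.8 and 15.5 CPM on auxin, against 10.4, 9.11, 8.93 and 9.45 CPM on ethanol (0.64 ± 0.10, limma, adjusted p = 0.0123). F44E7.5 was the 1 lower gene, at 0.07 at 8 h and -0.28 at 16 h (limma, adjusted p = 0.0256 at 16 h), and its call was lost with library sizes that leave out ribosomal RNA and with median centring. Differences between the times were not tested.

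At 24 h, with 3 libraries per group, limma called 1 gene higher and 0 lower (0.00961% higher, of 10411 tested, with 186 higher and 69 lower at an unadjusted p under 0.05). With the replicate number as a block, 29 were higher and 3 lower, 0.279% and 0.0288%. Same-numbered libraries deviated together at 24 h, though replicates 2 (correlation 0.18) less so than auxin replicate 3 with ethanol replicate 2 (0.25). All 21 of the 26 identifiers tested at 24 h were above 0, where 43.1% of all tested genes were, with a median of 1.34. None was called without the block and 14 with it, both identifiers of clec-209 among the 14. cyp-35A3 held 88.9, 36.5 and 54.7 CPM on auxin, against 9.06, 8.34 and 1.03 CPM on ethanol (log2 fold change 3.66, limma, adjusted p = 0.44 without the block and 0.000911 with it). The gene called without the block was K12D9.1, with 1.11, 1.37 and 1.28 CPM on auxin and 0 reads in the 3 ethanol libraries.

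**Figure D5:**
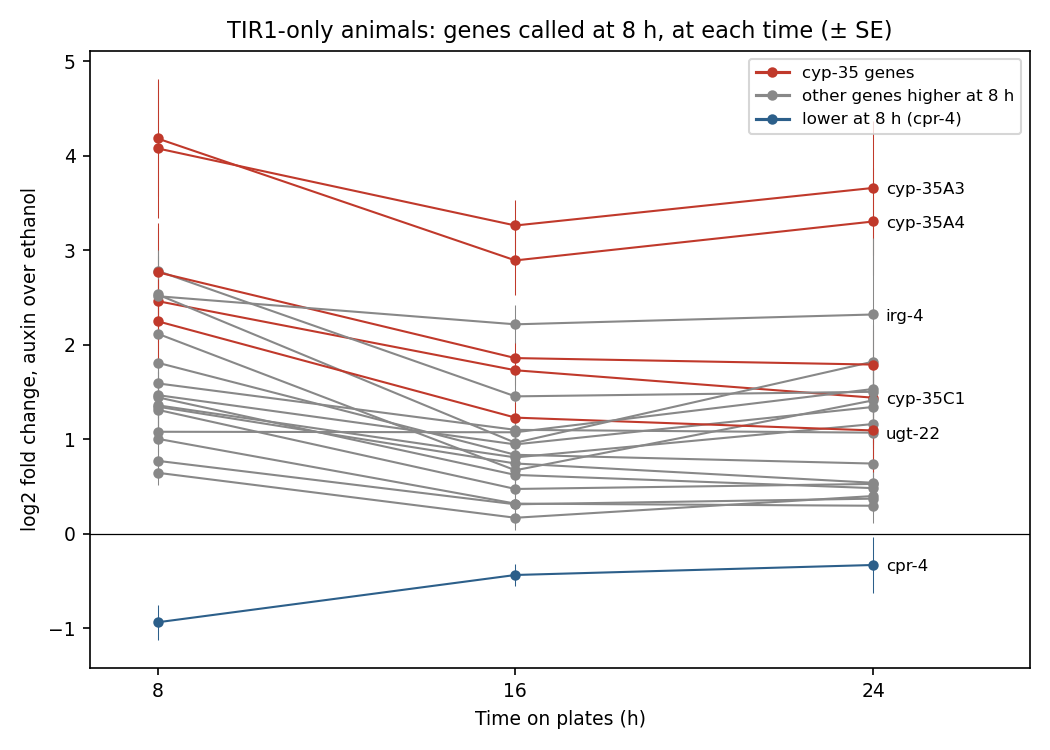
Each line is a gene called at 8 h and tested at all 3 times in TIR1-only animals, with hours on the plates on the horizontal axis and the log2 fold change of auxin over ethanol, with bars of 1 SE, on the vertical axis. All lines that start above 0 stay above 0, with cyp-35A3 and cyp-35A4 the highest at each time, and cpr-4 stays below 0.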

How the data were processed

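Polyadenylated RNA of young adult C. elegans was sequenced from strand-specific libraries, per the labels' protocols. STAR, featureCounts and edgeR and the builds WBcel235 and ce11 are named in the submitters' processing notes, with no versions or settings. The deposited tables hold log2 CPM (reads per 1000000) made by the authors, with a prior of 2 reads on average. After removing that prior, all values were whole reads (tolerance 0.05), and levels are CPM without it. Fold changes are differences of the deposited log2 values and understate the change of low genes. No count model was run, since no count table was used.

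Genes with at least 1 CPM in 4 libraries (3 at 24 h) were tested with limma 3.58.1 in R 4.3.3, with a mean-variance trend and the 4 groups of a time in 1 model, tested first on simulated data. P-values were two-sided and adjusted by Benjamini-Hochberg over all tested genes, at 0.05. Of 11430 identifiers, 11425 matched the Ensembl 115 annotation (WBcel235), the source of coordinates and exon lengths. Opposite-strand overlaps are exon overlaps in it. No sequences are given.

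Same-numbered TIR1-only libraries deviated together in every pair at 24 h (correlations 0.53, 0.18 and 0.33 over genes), in 2 of 4 pairs at 8 h (0.03, 0.47, -0.11 and 0.55) and in 1 of 4 at 16 h (-0.12, 0.08, -0.14 and 0.71). Numbers were taken to pair samples where every pair exceeded 0.1, so the replicate block is reported beside the count at 24 h. At 24 h auxin replicate 3 and ethanol replicate 2 correlated at 0.25, above the 0.18 of the pair numbered 2. The other pairs of unlike number ran from -0.45 to 0.09. The pairing is therefore not shown for replicate 2. No 2 replicates were copies of each other (chi-square per gene 30.7 to 1321 over 12 pairs). Intervals on read ratios cover counting error only.

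The genes and lists were chosen with earlier results of these data known. Named genes were the 15 largest rises and falls called, up to 3 members per list with a called gene, the called genes of highest mean CPM, the 3 leading strain differences and fixed stress and control genes. Of the fixed genes hsp-70, hsp-16.2, ahr-1, cyp-35B1 and fmo-2 were not tested at 8 h. Alternatives covered the model, filter, prior, scaling and each library left out.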

Additional observations from a re-analysis of the deposited data

Results flagged for a closer look

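Among 92 groups of 4 TIR1-only libraries at 8 h (a named gene on auxin or on ethanol), 8 held a library far from the other 3, and chance flags about 1 in 20 groups. In T16G1.6 auxin replicate 1 held 18.1 CPM, against 6.22 to 7.26 CPM in the other auxin libraries, and in gst-21 it held 3.82 CPM, against 1.81 to 2.01 CPM. sod-3 held 1.81 CPM in auxin replicate 2 and 0.856 to 0.909 CPM in the others. Ethanol replicate 2 stood apart in clec-206 (0.169 CPM, others 0.0628 to 0.0684 CPM), C18H9.6 (27.1 CPM, others 19.7 to 20.9 CPM) and gst-35 (0.169 CPM, others 0.728 to 0.753 CPM). Ethanol replicate 1 stood apart in ugt-21 (2.89 CPM, others 2.02 to 2.07 CPM) and in cyp-35A1 (0.0628 CPM, which is its 1 read, others 0). The calls of T16G1.6, clec-206, C18H9.6, ugt-21, cyp-35A1 and gst-21 are those of the report, where each library's part in the count of calls is given.

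The auxin effect on hsp-90 differed between the strains, by -1.32 on the log2 scale as HSF-1-AID minus TIR1-only.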

How the results depend on the processing

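At 8 h the 26 higher identifiers kept their direction under each alternative that changed the fit, the library sizes or the libraries. With at least 5 CPM required, 19 of them were tested and all 19 were higher. With the TIR1-only groups alone limma called 0 higher and 0 lower, and without the 4 libraries numbered 4 it called 0 and 0. limma voom on recovered reads, chosen after seeing the data, called 23 higher and 0 lower (121 higher and 93 lower at an unadjusted p under 0.05). The replicate block, where 2 of the 4 same-numbered pairs deviated together at 8 h (replicates 2 and 4), gave 26 higher and 1 lower, with 23 of the 26 still called. Library quality weights gave 33 higher and 1 lower, with 25 of the 26 still called and a median of 1.66 over the 26, but 425 higher and 491 lower at an unadjusted p under 0.05. Requiring 5 CPM gave 18 higher, and library sizes without ribosomal RNA 21. Leaving out 1 library gave 8 to 27 higher and 0 to 1 lower.

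Elsewhere library quality weights gave 3 genes lower in the difference between strains, where leaving out the libraries numbered 4 gave 0, and 211 higher and 74 lower in HSF-1-AID animals. There 5 CPM gave 17 higher, and leaving out the libraries numbered 4 gave 2 higher and 1 lower. Leaving out 1 library gave 8 to 29 higher and 1 to 4 lower in HSF-1-AID animals, and 9 to 17 higher and 0 to 4 lower at 16 h. At 16 h no gene was lower (0) without ribosomal RNA in the library size or with median centring. At 24 h the replicate block gave 29 higher and 3 lower, and 5 CPM gave 0 higher (limma). The cause of these shifts was not tested.

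Of the single genes, 3 near 0 changed sign: hsp-1 (-0.018) with quality weights, hsp-4 with quality weights (-0.0398) and library sizes without ribosomal RNA (-0.0072), and vit-2 with quality weights (-0.23). Leaving out 1 TIR1-only library gave hsp-4 values of -0.030 to 0.072 and vit-2 values of -0.12 to 0.20. The planned edgeR and DESeq2 fits were not run. The tables hold log2 values, and limma voom took their place on the recovered reads. Depth limits transcripts under 1 CPM on ethanol, where a library gives a handful of reads.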
